A study of Mus musculus with 8 samples.

Results

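The complement and coagulation genes described here encode plasma proteins that the liver makes and secretes. The list held 38 genes, and a gene was kept when the array annotation gave at least 1 transcript cluster to that gene alone, using the brightest one of a gene with several. By this rule 34 of the 38 were measured, among 22180 genes in all. Masp2 and Klkb1 were read only by clusters that the annotation shares with at least 1 other gene. C3 and Cpb2 had no cluster naming them, alone or with other genes, in the annotation used here. These 4 were therefore not analysed. Liver RNA came from 4 male HFD PN offspring, nursed by C57BL/6J dams on a 60% high-fat diet during lactation, and from 4 male Ctrl PN offspring, nursed by dams kept on standard chow. Offspring of both groups were weaned onto normal diet and killed at 24 weeks of age in the fed state, and each liver was hybridised to 1 Affymetrix Mouse Gene 2.1 ST array. The exposure was thus to the dam's diet and to milk, the offspring themselves ate normal diet as adults, and the sources name different standard chows for the control dams. The sources used here do not say which livers shared a litter, so p-values measure the spread between these 8 livers only.

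Complement is a cascade of plasma proteases and binding proteins that tags microbes, recruits leukocytes and, at its end, opens pores in membranes. Coagulation is a parallel protease cascade that turns fibrinogen into fibrin, with the contact system as one entry, anticoagulant proteins as brakes and plasmin to dissolve the clot. Hepatocytes are the main source of most of these proteins, and their genes depend on the factors that keep hepatocytes differentiated, while several of them also respond to inflammation as acute phase genes.

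Values are log2 expression as the authors deposited it after RMA, which subtracts background, makes the arrays alike in the distribution of their probe signals and gives 1 value per transcript cluster, a set of probes along one transcript. A difference of 1 is a doubling. Probes of different genes bind with different strength, so a level was compared between livers and not between genes. The means of the 34 genes over all livers ran from 4.28 for C2 to 10.64 for Fgb, all above 1.55, the median of all deposited values. Before any comparison, 2 arrays stood apart from the rest. Across genes, Pearson's r with the remaining 6 arrays was 0.945 to 0.959 for HFD PN replicate 1 and 0.969 to 0.979 for Ctrl PN replicate 3, and it was 0.986 to 0.991 within those 6. The upper quartile of all gene levels was 2.64 on HFD PN replicate 1 and 2.92 on Ctrl PN replicate 3, against 3.16 to 3.31 on the others. All 8 arrays were kept, and results that rest on these 2 are also given without them. Markers of hepatocytes, the main cell of the labelled tissue, were mostly far above the median of all values, and none of 19 measured hepatocyte enzymes and none of 19 other secreted hepatocyte proteins had a mean under it. The exceptions among the enzymes were Ass1 and Bhmt, whose clusters averaged 1.82 and 1.75. The mean level of the hepatocyte enzymes was 8.08 to 8.68 in HFD PN and 8.02 to 8.52 in Ctrl PN livers.

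None of the 34 genes passed a test of the difference between HFD PN and Ctrl PN livers. At the exploratory unadjusted p under 0.01 of the study, limma called 0 of 34 genes higher and 0 lower in HFD PN, where over all 22180 genes it called 0.194% higher and 0.361% lower. At an unadjusted p under 0.05 the counts were also 0 and 0, against 1.13% and 2.36% of all genes. The limma adjusted p was 0.99988 for each of the 34. The log2 differences, HFD PN minus Ctrl PN, ran from -0.31 for Masp1 to 0.26 for Fga. Of these, 24 were positive and 10 negative, with a median of 0.05, beside a median of -0.02 over all genes, of which 44.1% were positive. Brighter genes leaned less to the negative side. Of genes with a mean level over 4, 2068 of 3795 were positive, and of those over 6, 746 of 1342, both with a median of 0.02. For 20 of the 34 genes the difference was under 0.1 in size. In 0 of the 34 genes did the groups fail to overlap, against 0.726% of all genes with HFD PN higher and 2.1% with HFD PN lower, and the smallest p of an exact two-sided permutation test over the livers was 0.0857, for C8b (4 livers against 4 cannot give less than 0.0286). All 34 of the 95% intervals spanned 0. They lay within 1 of 0 on both sides for 32 genes, all but Masp1 and C4b, and within 0.5 for 13 genes. A change in hepatocyte number and a change in RNA per hepatocyte cannot be told apart in whole liver.

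**Figure D1:**
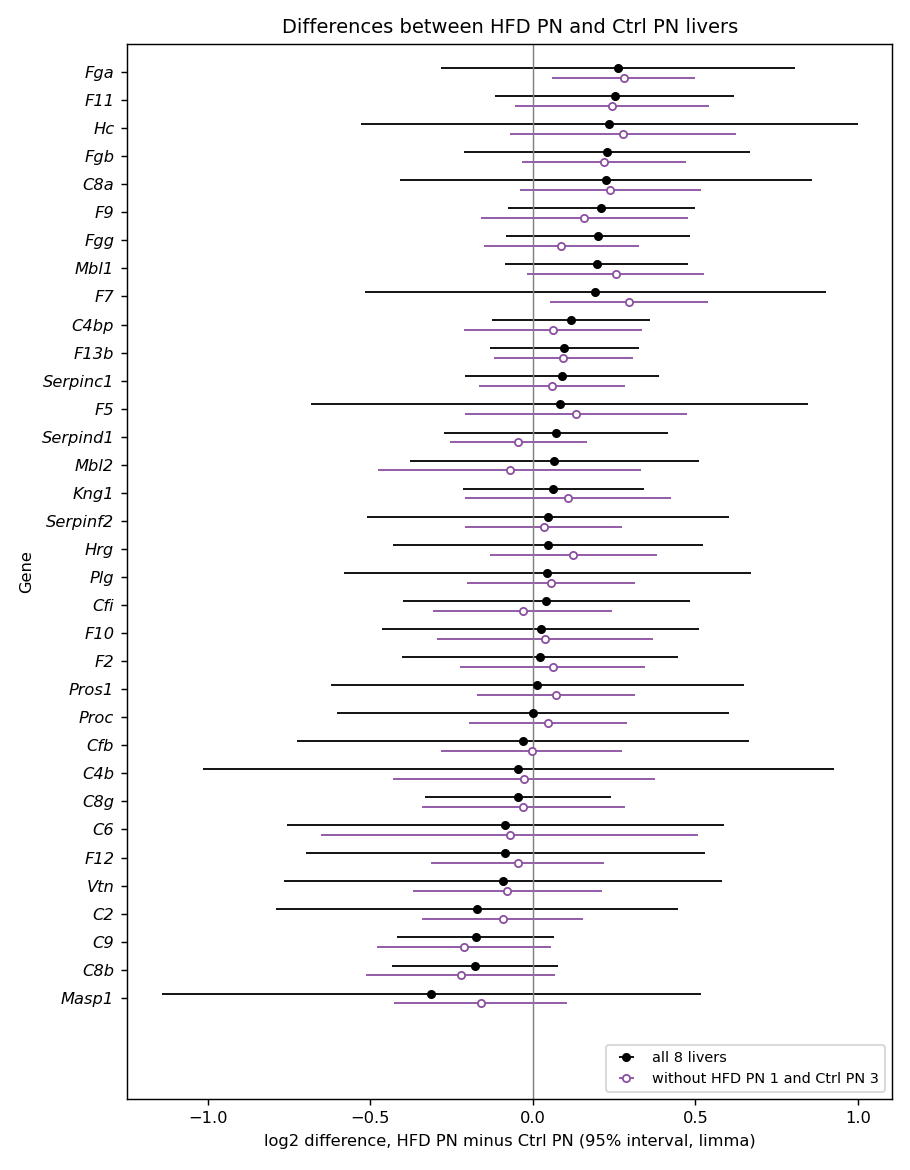
Log2 difference between HFD PN and Ctrl PN livers for the 34 genes, in order of size, with 95% intervals from limma. Filled points use all 8 livers and open points leave out HFD PN replicate 1 and Ctrl PN replicate 3; every filled interval spans 0, from Fga at 0.26 to Masp1 at -0.31, and most open intervals are narrower.

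The larger pattern in these genes lay between livers of the same group. The mean of the 34 genes was 7.41, 7.97, 8.02 and 8.03 in HFD PN replicates 1 to 4 and 7.92, 8.06, 7.38 and 7.88 in Ctrl PN replicates 1 to 4, so that 1 liver of each group was low. In 24 of the 34 genes (70.6%) HFD PN replicate 1 and Ctrl PN replicate 3 were both below all the other 6 livers, as they were in 53.0% of the 3795 genes with a mean level over 4 and in 19.7% of all genes. The median member was lower by 0.66 on HFD PN replicate 1 than in the other HFD PN livers, and by 0.63 on Ctrl PN replicate 3 than in the other Ctrl PN livers. Over the 3795 genes with a mean level over 4 these medians were -0.60 and -0.33. Over the 1342 genes with a mean level over 6 they were -0.31 and -0.20. The spread of a gene over the 8 livers had a median SD of 0.32, from 0.12 for F13b to 0.67 for C4b. Without the 2 arrays the median SD was 0.16, with Serpind1 the lowest at 0.04 and C6 the highest at 0.39, and 29 of the 34 genes spread less. The 5 exceptions were Mbl1, C8b, C8g, C9 and Kng1.

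**Figure D2:**
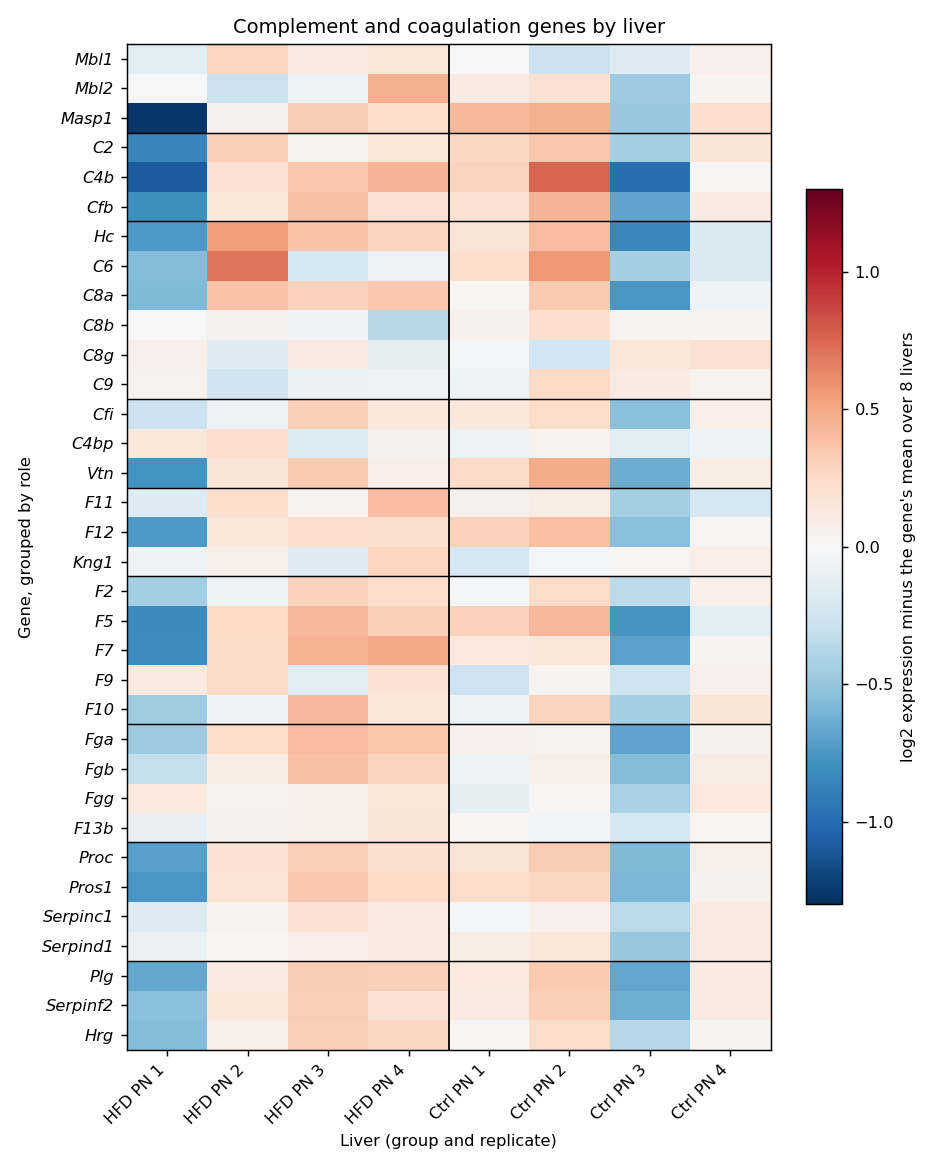
Log2 expression of the 34 genes in each liver, minus the mean of that gene over 8 livers, with genes in rows by role and livers in columns (HFD PN left, Ctrl PN right). The columns of HFD PN replicate 1 and Ctrl PN replicate 3 are blue in most rows and near white for C8b, C8g, C9, C4bp and Kng1.

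The shift was uneven from gene to gene, and the same genes carried it on both arrays. A first set of 18 genes was lower by more than 0.5 on each of the 2 arrays than in the other livers of its group. It held the convertase genes C2, C4b and Cfb with Masp1, the terminal components Hc, C6 and C8a, Vtn, the coagulation genes F12, F5, F7, F10, Fga and Fgb, the anticoagulants Proc and Pros1, and Plg and Serpinf2. A further 7 genes, C8b, C8g, C9, C4bp, Kng1, F9 and F13b, stayed within 0.25 of their group on each array. The first limit was met by 52.9% of the 34 genes and by 31.6% of 19 other secreted hepatocyte proteins. It was met by 33.8% of genes with a mean level over 4 and by 9.47% of all genes. For the second limit these shares were 20.6%, 36.8%, 11.5% and 34.6%. The remaining 9 of the 34 genes met neither limit, and 3 of them were shifted mainly on Ctrl PN replicate 3. The shift of Mbl2 was -0.04 on HFD PN replicate 1 and -0.59 on Ctrl PN replicate 3, that of Serpind1 -0.16 and -0.62, and that of Fgg 0.03 and -0.43. Over the 34 genes the shifts on the 2 arrays correlated at Pearson's r = 0.87 and Spearman's rho = 0.89, and over 3795 genes with a mean level over 4 at 0.75 and 0.76. These correlations are across genes, which are not independent replicates and share their arrays, so they are given as a description. The shift was not particular to these proteins. Over 19 other secreted hepatocyte proteins it had a median of -0.32 on HFD PN replicate 1 and of -0.31 on Ctrl PN replicate 3, and both arrays lay below all others in 63.2% of them. Hepatocyte transcription factors, with 14 measured, were lower by a median of 1.13 and 0.85. Neutrophil markers ran the other way on HFD PN replicate 1. Their mean over 10 genes was 2.11 there, against 1.33 to 1.42 in the other HFD PN livers. It was 1.60 on Ctrl PN replicate 3 and 1.34 to 1.47 in the other Ctrl PN livers. S100a8 was at 3.52 and S100a9 at 3.61 on HFD PN replicate 1, while 6 of the 10, over all livers, lay under the median of all values. Lymphocyte markers were also highest on HFD PN replicate 1, at a mean of 1.73 against 1.56 to 1.70 in the other livers. Over all genes the shift on that array had a Spearman's rho of -0.56 with the level in the 6 other arrays. The part of leukocytes, RNA quality or the array itself in the shift was not tested.

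**Figure D3:**
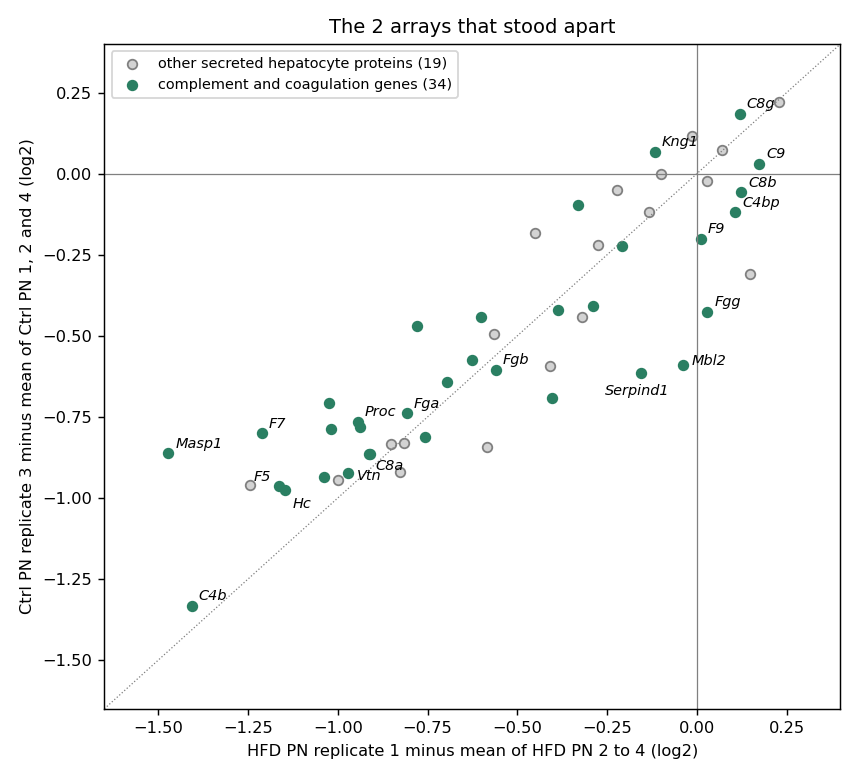
Shift of each gene on HFD PN replicate 1 from the mean of the other HFD PN livers (horizontal axis, log2) against its shift on Ctrl PN replicate 3 from the mean of the other Ctrl PN livers (vertical axis, log2). Green points are the 34 complement and coagulation genes and grey points 19 other secreted hepatocyte proteins; genes run from C4b and Masp1 at the lower left to C8g and C9 at the upper right.

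The lectin pathway starts when mannose-binding lectins settle on microbial sugars and activate their associated proteases. Mbl1, 1 of the 2 lectins, had log2 levels of 6.75, 7.17, 7.01 and 7.05 in HFD PN livers and of 6.89, 6.62, 6.73 and 6.96 in Ctrl PN livers, with overlapping groups and a difference of 0.20 (standard error 0.12). Mbl2, the other lectin, had a difference of 0.07 (standard error 0.20). Masp1, a protease that these lectins carry, was at 4.92, 6.23, 6.51 and 6.42 in HFD PN and at 6.61, 6.64, 5.69 and 6.40 in Ctrl PN livers. Its low values were those of the 2 arrays that stood apart, and the groups overlapped. The mean of Masp1 was 6.02 ± 0.75 in HFD PN and 6.33 ± 0.44 in Ctrl PN (SD, n = 4 each), and its difference of -0.31 was the lowest of the 34 genes (exact permutation test, two-sided p = 0.514). This value moved with either array, since it was 0.06 with HFD PN replicate 1 left out and -0.53 with Ctrl PN replicate 3 left out.
C2, C4b and Cfb make the proteases that cleave the central component, C2 and C4b in the classical and lectin routes and Cfb in the alternative route. Their differences were all negative and small, at -0.17 for C2, -0.05 for C4b and -0.03 for Cfb. C4b had the widest spread of the 34 genes, a 3.57-fold range between the highest and the lowest liver. It was at 5.05, 6.32, 6.48 and 6.57 in HFD PN and at 6.42, 6.89, 5.15 and 6.14 in Ctrl PN livers. Of the other 6 livers the highest and the lowest were both Ctrl PN, and the difference without the 2 arrays was -0.03 (standard error 0.18). C4b has a close copy in the mouse genome, C4a, and how the probes divide the pair was not given in the sources used here. Cfb and C2 are direct neighbours on their chromosome, with no other protein-coding gene between them in the RefSeq table, and on HFD PN replicate 1 they were lower by 1.04 and 1.02 than in the other HFD PN livers.

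The terminal components assemble into the membrane attack complex. In it Hc, the mouse name of C5, is cleaved first and C6 binds it. C8, a complex of 3 chains, then inserts into the membrane, and C9 forms the pore. Hc was at 7.68, 8.97, 8.80 and 8.72 in HFD PN livers and at 8.59, 8.82, 7.58 and 8.24 in Ctrl PN livers. The lowest liver of each group was again the array that stood apart, and the groups overlapped. Its difference was 0.23 (standard error 0.34), with a two-sided p = 0.514 in the exact permutation test, and it was 0.52 with HFD PN replicate 1 left out and -0.01 with Ctrl PN replicate 3 left out. C6, at -0.08, had the widest spread of the 34 genes once the 2 arrays were left out, with HFD PN livers at 5.93, 7.19, 6.27 and 6.42 and Ctrl PN livers at 6.72, 7.06, 6.05 and 6.31. C9 did not follow Hc. It was at 9.25, 8.94, 9.12 and 9.15 in HFD PN and at 9.15, 9.46, 9.31 and 9.24 in Ctrl PN livers, with neither odd array low. Its mean was 9.12 ± 0.13 in HFD PN and 9.29 ± 0.13 in Ctrl PN (SD, n = 4 each), a difference of -0.18 (exact permutation test, two-sided p = 0.143).
The 3 genes of C8, whose products form 1 complex in plasma, differed from each other in how they varied. C8a was at 6.76, 7.70, 7.63 and 7.68 in HFD PN and at 7.34, 7.67, 6.57 and 7.29 in Ctrl PN livers, low on both arrays that stood apart. C8b was at 9.03, 9.08, 8.97 and 8.67 in HFD PN and at 9.08, 9.24, 9.07 and 9.07 in Ctrl PN livers, with HFD PN replicate 4 the lowest. C8g, a lipocalin bound to the C8a chain, was at 9.09, 8.86, 9.14 and 8.90 in HFD PN and at 9.01, 8.77, 9.18 and 9.21 in Ctrl PN livers. Neither C8b nor C8g followed C8a on the 2 arrays. C8b had the smallest permutation p of the 34 genes, at a difference of -0.18 (95% interval -0.43 to 0.08), while C8a had a difference of 0.23 (95% interval -0.41 to 0.86).
C8a and C8b are direct neighbours on chromosome 4, on opposite strands. The 250 bases before each annotated start are given below because this pair lies side by side and only C8a was low on the 2 arrays. Capitals mark GTTAAT or its reverse complement ATTAAC, the core of the site bound by HNF1, a factor of differentiated hepatocytes, and TTGCNNAA or TTNNGCAA, a core of the site bound by C/EBP factors. No motif overlapped another in the sequences printed. The sequences are from RefSeq (GRCm38.p6), at chr4:104876399-104876648 on the minus strand for C8a and at chr4:104766067-104766316 on the plus strand for C8b.
C8a: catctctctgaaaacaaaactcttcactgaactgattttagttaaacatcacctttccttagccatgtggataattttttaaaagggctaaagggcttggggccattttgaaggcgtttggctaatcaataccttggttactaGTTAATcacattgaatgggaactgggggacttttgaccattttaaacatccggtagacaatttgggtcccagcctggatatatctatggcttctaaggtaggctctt
C8b: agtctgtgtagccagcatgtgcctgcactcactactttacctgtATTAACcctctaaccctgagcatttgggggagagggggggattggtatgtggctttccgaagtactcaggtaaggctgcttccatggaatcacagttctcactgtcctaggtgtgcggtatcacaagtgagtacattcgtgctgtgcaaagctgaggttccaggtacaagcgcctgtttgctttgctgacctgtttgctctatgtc
GTTAAT began 107 bases before the start of C8a, and ATTAAC 206 bases before the start of C8b. A match is a string of letters and not a bound site.

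Complement inhibitors keep the cascade off host cells. Cfi, a protease that inactivates the convertase subunits, had a difference of 0.04 (standard error 0.19). C4bp, its cofactor in plasma, was steady, at 8.84, 8.92, 8.53 and 8.76 in HFD PN and at 8.64, 8.75, 8.56 and 8.64 in Ctrl PN livers. Its SD over all livers was 0.14, the second smallest of the 34 genes, and its difference was 0.12 (exact permutation test, two-sided p = 0.286). Vtn, an adhesive protein that also blocks the membrane attack complex, had a difference of -0.09 (standard error 0.30) and was lower by 0.97 on HFD PN replicate 1 and by 0.92 on Ctrl PN replicate 3.

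In the contact system F12 is activated on charged surfaces and activates F11, which circulates bound to kininogen. F11 had the second highest difference of the 34 genes, 0.25 (standard error 0.16). It was at 5.84, 6.23, 6.05 and 6.41 in HFD PN livers and at 6.06, 6.10, 5.57 and 5.79 in Ctrl PN livers, with overlap between the groups (two-sided p = 0.229, exact permutation test). F12 had a difference of -0.09 (standard error 0.27) and Kng1, the kininogen, of 0.06 (standard error 0.12). Kng1 has a close copy, Kng2, whose difference was 0.18.

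F2, F7, F9 and F10 are zymogens that need vitamin K for their calcium-binding residues, and F5 is the cofactor of activated F10. All 5 differences were positive, from 0.02 for F2 to 0.21 for F9, and none passed the test. F5 was at 6.65, 7.74, 7.92 and 7.79 in HFD PN and at 7.78, 7.92, 6.72 and 7.35 in Ctrl PN livers, a difference of 0.08 (exact permutation test, two-sided p = 0.857). F9 was the zymogen that did not follow the 2 arrays, at 8.19, 8.32, 7.94 and 8.26 in HFD PN and at 7.80, 8.11, 7.82 and 8.14 in Ctrl PN livers. F7, which tissue factor activates to start coagulation, was at 5.00, 6.06, 6.27 and 6.31 in HFD PN and at 5.94, 5.96, 5.12 and 5.85 in Ctrl PN livers. Outside the 2 low arrays every HFD PN liver was above every Ctrl PN liver for F7, and its difference was 0.19 with all livers and 0.29 (standard error 0.11) without these arrays. F7 and F10 are direct neighbours on their chromosome, and F10 had a difference of 0.02.

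The 3 chains of fibrinogen are made by adjacent genes, and their differences were among the 8 highest of the 34 genes, with none passing the test. Fga, the alpha chain, had the highest difference. It was at 9.23, 9.95, 10.11 and 10.06 in HFD PN livers and at 9.77, 9.75, 9.02 and 9.76 in Ctrl PN livers. Its mean was 9.84 ± 0.41 in HFD PN and 9.57 ± 0.37 in Ctrl PN (SD, n = 4 each), a difference of 0.26 or 1.20-fold (95% interval -0.28 to 0.81; exact permutation test, two-sided p = 0.400). Fgb, the beta chain, was at 10.34, 10.74, 11.02 and 10.93 in HFD PN and at 10.59, 10.72, 10.08 and 10.73 in Ctrl PN livers. Its difference was 0.23 (standard error 0.19). Fgg, the gamma chain, was at 10.73, 10.65, 10.68 and 10.76 in HFD PN and at 10.48, 10.62, 10.18 and 10.73 in Ctrl PN livers. Its difference was 0.20 (standard error 0.12). Fgg thus parted from the other chains on HFD PN replicate 1, where Fga was lower by 0.81 and Fgb by 0.56 than in the other HFD PN livers. F13b, the carrier of the enzyme that crosslinks fibrin, had the smallest spread of the 34 genes. It was at 6.93, 7.10, 7.12 and 7.21 in HFD PN and at 7.07, 7.01, 6.83 and 7.07 in Ctrl PN livers, a difference of 0.10 (95% interval -0.13 to 0.33).
The sequences before the starts of the fibrinogen genes are given because the 3 chains are needed in equal number while their RNA varied together on 1 of the 2 arrays and apart on the other. Capitals mark the same motifs as above, on the 250 bases before each start in RefSeq (GRCm38.p6), at chr3:83025903-83026152 on the plus strand for Fga, at chr3:83049864-83050113 on the minus strand for Fgb and at chr3:83007474-83007723 on the plus strand for Fgg.
Fga: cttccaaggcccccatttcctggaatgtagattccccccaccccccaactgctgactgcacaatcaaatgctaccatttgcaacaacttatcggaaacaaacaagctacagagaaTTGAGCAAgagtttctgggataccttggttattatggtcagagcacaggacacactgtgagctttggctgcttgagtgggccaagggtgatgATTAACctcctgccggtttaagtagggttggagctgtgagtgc
Fgb: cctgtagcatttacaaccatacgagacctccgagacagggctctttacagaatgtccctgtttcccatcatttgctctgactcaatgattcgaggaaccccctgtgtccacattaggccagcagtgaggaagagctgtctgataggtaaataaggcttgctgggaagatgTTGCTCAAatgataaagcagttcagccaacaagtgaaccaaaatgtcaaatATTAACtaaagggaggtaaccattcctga
Fgg: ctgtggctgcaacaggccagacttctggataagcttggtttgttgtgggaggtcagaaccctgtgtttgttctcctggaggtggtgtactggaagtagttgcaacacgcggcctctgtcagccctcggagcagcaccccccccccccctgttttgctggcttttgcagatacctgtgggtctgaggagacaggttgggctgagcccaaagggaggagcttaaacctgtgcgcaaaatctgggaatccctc
Fga and Fgb each held ATTAAC, 43 and 29 bases before the start, and the C/EBP core, 135 and 80 bases before it, and the window of Fgg held neither. CTGGGA, a core of the response element through which interleukin-6 acts on acute phase genes (searched with its reverse complement TCCCAG), was in all 3 windows, 121, 91 and 13 bases before the starts of Fga, Fgb and Fgg. Of the 34 genes, 26 matched the promoter table. GTTAAT or its reverse complement lay in 8 of these (30.8%, C4bp, C8a, C8b, F13b, Fga, Fgb, Hc and Vtn), against 6.43% of 32851 promoters of all genes. The C/EBP core lay in 6 of the 26 (23.1%) against 9.56%, and CTGGGA in 10 (38.5%) against 27.0%. The units differ, since a member gene counted if any of its promoters matched, while the share over all genes counted single promoters. Of the 7 genes within 0.25 on both low arrays, C4bp, C8b and F13b held GTTAAT or its reverse complement. C9 and F9, also of these 7, held the C/EBP core. Of the 18 genes lower by more than 0.5 on both, C8a, Fga, Fgb, Hc and Vtn held GTTAAT or its reverse complement. Fga and Fgb of these 18 held the C/EBP core, as did F11 and Hrg, which met neither limit. The shares describe the letters alone, and neither they nor their relation to the shift was tested.

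**Figure D4:**
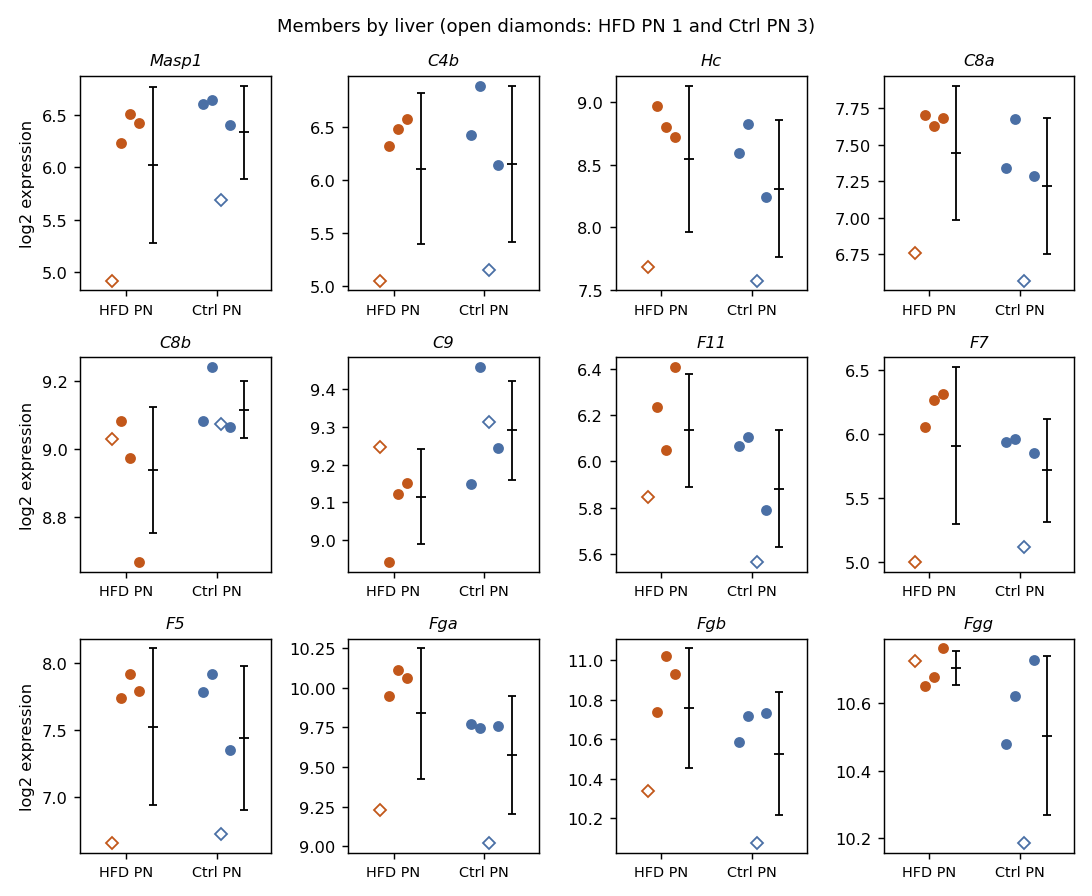
Log2 expression of 12 genes in each liver (HFD PN left, Ctrl PN right), with the mean and SD of 4 livers beside the points. Open diamonds are HFD PN replicate 1 and Ctrl PN replicate 3, which lie lowest in their group for 9 of the 12 genes in HFD PN (not C8b, C9 or Fgg) and for 10 of the 12 in Ctrl PN (not C8b or C9).

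Among the anticoagulants, Serpinc1 (antithrombin) and Serpind1 (heparin cofactor II) inhibit thrombin, and Proc with its cofactor Pros1 inactivates coagulation cofactors. All 4 differences were positive and under 0.1, at 0.00 for Proc, 0.01 for Pros1, 0.07 for Serpind1 and 0.09 for Serpinc1. Pros1 was at 3.63, 4.57, 4.74 and 4.65 in HFD PN and at 4.63, 4.66, 3.79 and 4.44 in Ctrl PN livers (exact permutation test, two-sided p = 0.943). Serpind1 was at 8.85, 8.96, 9.02 and 9.04 in HFD PN and at 9.03, 9.08, 8.44 and 9.05 in Ctrl PN livers, with Ctrl PN replicate 3 further below its group than HFD PN replicate 1.
Plg, the precursor of plasmin, Serpinf2, its main inhibitor, and Hrg, a histidine-rich protein that binds plasminogen and heparin, each had a difference of 0.05. Hrg was at 9.67, 10.31, 10.54 and 10.50 in HFD PN and at 10.24, 10.46, 9.86 and 10.27 in Ctrl PN livers (exact permutation test, two-sided p = 0.771). The 95% interval for Plg was -0.58 to 0.67, and for Hrg -0.43 to 0.52.

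Leaving out the 2 arrays narrowed most of the intervals and called none of the 34 genes at an unadjusted p under 0.01, where 1.69% of all genes were higher and 0.546% lower. At an unadjusted p under 0.05, 2 of 34 genes were higher (5.62% of all genes) and 0 lower (2.76%), namely Fga at 0.28 (standard error 0.10, limma adjusted p = 0.489) and F7 at 0.29 (standard error 0.11, limma adjusted p = 0.512). Every remaining HFD PN liver was above every remaining Ctrl PN liver for 5 of the 34 genes, Mbl1, F7, Fga, Fgb and F13b, against 7.24% of all genes, and the reverse held for 0 of 34, against 6.73%. Of the 34 differences 21 were positive, with a median of 0.06, beside 48.4% of all genes. Brighter genes in general also leaned upward without the 2 arrays. Of genes with a mean level over 4, 2587 of 3795 were positive with a median of 0.08. Of those over 6, 824 of 1342 were positive with a median of 0.05. Each array mattered alone for the signs. Without HFD PN replicate 1, 31 of 34 differences were positive with a median of 0.19 (47.5% of all genes positive), and without Ctrl PN replicate 3, 11 of 34 were positive with a median of -0.09 (43.0% of all genes). Without HFD PN replicate 1, 0 genes passed an unadjusted p under 0.01 (1.77% of all genes higher, 0.446% lower), and Mbl1, F7 and Fga were higher at an unadjusted p under 0.05 (6.53%) with 0 lower (2.86%), at limma adjusted p of 0.511 or more. The same 5 genes as above did not overlap on the higher side (5.85%), and 0 on the lower (5.02%). Without Ctrl PN replicate 3, 0 genes passed either threshold (0.0812% higher and 0.243% lower at 0.01, 0.839% and 1.81% at 0.05), and 0 were without overlap on the higher (1.55%) or the lower side (3.24%). The signs of these differences thus moved with the arrays kept.

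Genes of the same pathways outside these 34, made partly by other cells of the liver, were taken from 2 lists with 56 measured genes. Of these, 2 were higher at an unadjusted p under 0.01 and 0 were lower (0.194% and 0.361% of all genes). The pair was Thbd, thrombomodulin, which turns thrombin into an activator of protein C, and Procr, the endothelial receptor that presents protein C to it. Thbd was at 1.67, 2.00, 1.85 and 1.93 in HFD PN livers and at 1.47, 1.57, 1.58 and 1.54 in Ctrl PN livers. Procr was at 2.07, 2.07, 1.88 and 2.07 in HFD PN livers and at 1.73, 1.85, 1.57 and 1.62 in Ctrl PN livers. The groups did not overlap for either gene (0.726% of all genes on this side), the differences were 0.32 (standard error 0.10) and 0.33 (standard error 0.10), and the limma adjusted p was 0.99988 for both. These levels lie close to 1.55, the median of all deposited values. With each liver left out in turn, Thbd kept an unadjusted p under 0.01 only without HFD PN replicate 1, at a difference of 0.28 to 0.34 over the other 7 livers left out, and Procr only without HFD PN replicate 3 or Ctrl PN replicate 2.
At an unadjusted p under 0.05, these 2 genes were again higher (1.13% of all genes) and 3 of the 56 were lower (2.36%). Itgb2, the shared chain of the complement receptors of leukocytes, was at 2.02, 2.25, 2.21 and 2.23 in HFD PN and at 2.44, 2.78, 2.35 and 2.62 in Ctrl PN livers, with no overlap and a difference of -0.37 (standard error 0.12). C3ar1, the receptor of the C3a fragment on myeloid cells, had a difference of -0.27 (standard error 0.11) and overlapping groups. F2rl2, a thrombin receptor, had a difference of -0.34 (standard error 0.11), at 1.04 to 1.39 in HFD PN and 1.44 to 1.72 in Ctrl PN livers, near or under the median of all values. Kupffer cell and macrophage markers, measured by the same arrays, had negative differences in 14 of 15 genes (12389 of 22180 over all genes). Their median was -0.23, beside -0.02 over all genes. Without the 2 arrays that stood apart, 4 of the 15 were positive (48.4% of all genes) and the median was -0.16. Their mean level was 4.22 to 4.85 in HFD PN and 4.59 to 4.80 in Ctrl PN livers, with none of the 15 under the median of all values. Sinusoidal endothelial markers were negative in 13 of 16 with a median of -0.14, which became 6 of 16 positive with a median of -0.08 without the 2 arrays, at mean levels of 3.36 to 4.18 in HFD PN and 3.66 to 4.24 in Ctrl PN livers. The part of cell makeup in the values of Itgb2, C3ar1, Thbd and Procr was not tested.
Of 8 genes of the vitamin K cycle and of zymogen secretion 0 passed an unadjusted p under 0.05, the smallest p being those of Calu at a difference of 0.36 (standard error 0.30) and of Mcfd2, a cargo receptor subunit for coagulation factors, at 0.12 (standard error 0.17). Of 14 hepatocyte transcription factors 0 passed. Onecut1 had a difference of -0.70 (standard error 0.91), with livers from 2.58 to 6.95 in HFD PN and from 3.34 to 5.66 in Ctrl PN, and Nr3c1, the glucocorticoid receptor, one of -0.26 (standard error 0.37). Platelet and megakaryocyte markers, with 8 measured, had a mean level of 1.54 to 1.93 in HFD PN and 1.82 to 2.07 in Ctrl PN livers, and 2 of the 8 lay under the median of all values. Differences were negative in 7 of the 8 with a median of -0.16. Over all genes 12389 of 22180 were negative, with a median of -0.02. Of the 8, only Gp9, a chain of the platelet receptor for von Willebrand factor, was lower at an unadjusted p under 0.05 (2.36% of all genes). Its difference was -0.62 (standard error 0.26, limma adjusted p = 0.99988). Gp9 ran from 1.71 to 2.93 in HFD PN and from 2.50 to 3.18 in Ctrl PN livers, so these ranges crossed. Permuting the livers exactly gave Gp9 a two-sided p of 0.143. Without the 2 arrays that stood apart, 1 of the 8 markers was positive (48.4% of all genes) and their median was -0.14.

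**Figure D5:**
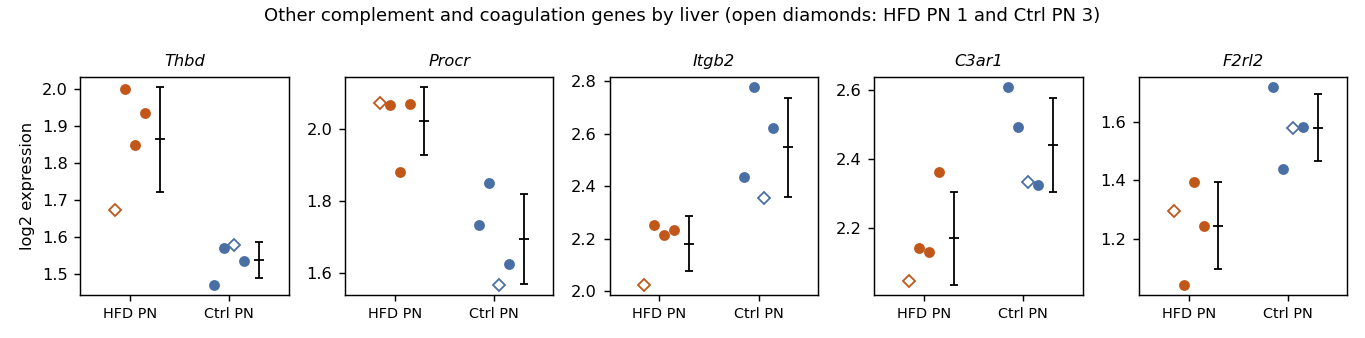
Log2 expression of the 5 genes of the complement and coagulation pathways outside the 34 that had an unadjusted p under 0.05, in each liver (HFD PN left, Ctrl PN right), with the mean and SD of 4 livers beside the points. Thbd and Procr lie higher in all 4 HFD PN livers, Itgb2 and F2rl2 lower, and C3ar1 overlaps; open diamonds are HFD PN replicate 1 and Ctrl PN replicate 3.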

How the data were processed

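Liver RNA of 4 HFD PN and 4 Ctrl PN male offspring was hybridised to 1 array per liver. The authors deposited log2 values made with RMA (oligo, R 3.4.3). Genome build and annotation release were not given in the sources used here. Of 41345 transcript clusters, 23521 named 1 gene, with symbols updated by gene identifier through the RefSeq mouse table (23328 matched). The 22180 genes were compared with limma (version 3.58.1, R 4.3.3) by lmFit and eBayes as 2 groups with no covariates, without further scaling or filter, at the study's unadjusted p threshold of 0.01 and at a Benjamini-Hochberg adjusted p under 0.05. Single genes were also compared by exact permutation. The procedure was tested on simulated arrays in which each gene was drawn independently. That test did not cover a shift shared by many genes of an array, as on the 2 low arrays. Members and gene lists were chosen with earlier results of these data known. All 34 measured members are named. Values by liver are given for the 3 highest and lowest differences, the 3 largest and smallest SDs and the most central gene of each other role group, and Mbl1, C6, C8a, C8g, F7, F9, Fgb, Fgg and Serpind1 were added after their values were seen. Gp9, Ass1 and Bhmt were also named after their values were seen. From the lists of other pathway genes, those at an unadjusted p under 0.05 are named, or else the 2 with the smallest p. The number of arrays limits the precision, since arrays have no read depth. Promoter sequences are from RefSeq (GRCm38.p6). The alternatives were another choice of cluster, 3 scalings, array weights, a filter on dim genes, a variance with trend and robust shrinkage, each liver or the 2 low arrays left out, a block by replicate number and the methods' t-test for equal and for unequal variances.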

Additional observations from a re-analysis of the deposited data

Results flagged for a closer look

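Each of the 34 genes was checked for a liver far from the other livers of its group, in 68 checks, and 10 were so. Chance alone gives about 1 in 20 for independent checks. These checks share the same 8 arrays, so their count cannot be judged against that rate. HFD PN replicate 1 was the far liver in 6 of these. It was at 5.05 for C4b (6.32 to 6.57 in the other HFD PN livers), at 6.76 for C8a (7.63 to 7.70), at 6.93 for F12 (7.83 to 7.90), at 6.65 for F5 (7.74 to 7.92), at 6.64 for Proc (7.54 to 7.67) and at 3.63 for Pros1 (4.57 to 4.74). Ctrl PN replicate 3 was the far liver in 3, at 5.12 for F7 (5.85 to 5.96 in the other Ctrl PN livers), at 9.02 for Fga (9.75 to 9.77) and at 8.44 for Serpind1 (9.03 to 9.08). All 9 values were low and lay on the 2 arrays that stood apart over all genes. The last was a high value, that of Ctrl PN replicate 2 for C8b at 9.24 (9.07 to 9.08).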

How the results depend on the processing

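The count of 0 members higher and 0 lower at an unadjusted p under 0.01 held under all 19 alternatives, and with limma and all livers the counts at an unadjusted p under 0.05 were also 0. The other choice of cluster and the filter on dim genes could not change the values of the members. Each member had 1 cluster of its own, and none was dim. At that wider threshold members passed on the higher side only, 3 without HFD PN replicate 1 (6.53% of all genes on that side), 3 with array weights (4.59%), 2 without both low arrays (5.62%) and 1, F9, without HFD PN replicate 3 (1.24%), with 0 under the other alternatives. The lowest adjusted p of any member under any alternative was 0.489. The median difference of 0.05 ran from -0.09 to 0.19 with 1 liver left out, with 0.09 after centring on medians, 0.02 after quantile normalization and 0.04 after shifting each array by other secreted hepatocyte proteins, and scaling left 21 to 26 of 34 differences positive. Signs of single members changed most without Ctrl PN replicate 3 (15 of 34). The labels number replicates in both groups, and deviations of same-numbered livers from their group means had correlations from -0.41 to 0.29. The 2 low arrays carry different numbers and weigh on these values. The check therefore cannot tell whether the numbers pair the livers. With the replicate number as a block, the counts of members called stayed at 0 and the median at 0.05.
For the other pathway genes, the 2 called higher became 0 after the shift by secreted hepatocyte proteins, with dim genes left out and with the replicate block, and 1 with a trended and robust variance, without both low arrays and in the unequal-variance form of the methods' t-test, and 0 to 1 with 1 liver left out. The 0 called lower became 1 after quantile normalization, with a trended and robust variance and without both low arrays, 2 with array weights, and 0 to 1 with 1 liver left out. Over all 22180 genes, the 43 higher and 80 lower at an unadjusted p under 0.01 were 70 and 38 after centring on medians, 66 and 74 after quantile normalization and 26 and 19 after the shift by secreted proteins, and over all alternatives 14 to 393 were higher and 19 to 185 lower. The cause was not tested. Thbd, Procr and F2rl2 read near the median of all values, and how far above background they lay was not measured.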
